A study of Homo sapiens with 24 samples.

Results

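The question examined here was whether 2 pancreas cell lines responded differently to the same extracellular vesicles, those released by PPCL-68 cells. For each gene the response of HPDE cells (vesicles minus residual medium) was set against the response of HPNE cells, and the HPDE response minus the HPNE response is called the line difference below. All 10483 genes of the 48162 in the tables whose mean was at least 1 FPKM over the 12 samples of each line were taken, and 12 of the 24 samples, 3 in each of 4 groups, entered the comparison. FPKM is a gene's read number scaled to transcript length and to the reads counted in that sample. All responses are differences of log2(FPKM + 1), so changes of genes with low FPKM come out too small.

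hTERT-HPNE (here HPNE) is a pancreas-derived line kept dividing by added telomerase (TERT), and HPDE-H6c7 (here HPDE) derives from pancreatic duct epithelium and is immortalised too. Each is a single established line, so a difference between them is a difference between 2 lines. Both were grown in keratinocyte serum-free medium with penicillin and streptomycin in 24-well plates. For 24 h they received either 1e10 PPCL-68 vesicles per well or, as the negative control, the medium that remained once vesicles had been isolated (residual medium). Untreated cells of both lines, given fresh serum-free medium, serve as a second reference, and wells given PANC-1 vesicles entered the filter on low values and the estimate of spread but not the comparison. The series describes its replicates as biological triplicates and does not say more of how wells were separated, so p-values measure the spread between these samples.

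Reads assigned to genes numbered 29209142 to 42206773 in HPDE libraries and 29874928 to 46490312 in HPNE libraries. The share of reads in the top 10 genes was 4.33 to 5.21% in HPDE and 14.5 to 18.3% in HPNE. Duct epithelium markers (EPCAM, KRT19, KRT7, KRT8, CDH1 and KRT5) summed to 3727 to 4257 FPKM in HPDE with residual medium and 1609 to 1682 FPKM with vesicles, against at most 4.53 FPKM in HPNE. Mesenchymal and telomerase markers (VIM, TERT, ZEB1, CDH2 and COL1A1) summed to 2889 to 4017 FPKM in HPNE with residual medium and 1858 to 1921 FPKM with vesicles, against 26.8 to 34.9 FPKM in HPDE. Both sums thus fell with vesicles in their own line, and their part in the line differences was not tested. The members did not share the fall evenly. Over both groups of HPDE, EPCAM read 171 to 192 FPKM and CDH1 44.9 to 56.6, where KRT8 read 158 to 674 and KRT19 317 to 1139.7. Over both groups of HPNE, ZEB1 read 16.4 to 20.9 FPKM, where COL1A1 read 1411 to 3498. Summed haematopoietic markers were at most 0.455 FPKM, endothelial at most 0.200 and acinar at most 0.0266 FPKM, the last at 0 in all vesicle samples. Among the 12 samples compared, a pair of HPNE libraries, 1 in each group, lay apart from the others of their group. Replicate 3 of HPNE with residual medium was on average 0.458 log2 units (root mean square over genes) from its fellows, which were 0.138 apart. Replicate 1 of HPNE with PPCL-68 vesicles was on average 0.351 away, where the other pair was 0.149 apart. In HPDE that average was at most 0.166 for the farthest replicate of either group. Results that rest on these libraries are given with and without them. Replicate 3 of untreated HPNE lay apart from its fellows too, with SFRP1, for example, at 113 FPKM against 27.7 and 27.5. It is part of every value against untreated cells below, and no fit against untreated cells left it out. Replicate 1 of HPNE with PANC-1 vesicles lay apart as well, and it entered the estimate of spread.

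Unfolded proteins in the endoplasmic reticulum (ER) activate the sensors IRE1 (encoded by ERN1), PERK (EIF2AK3) and ATF6. IRE1 splices XBP1 mRNA, and XBP1 and ATF6 then raise ER chaperones, ER-associated degradation (ERAD) and the secretory machinery. PERK, like several other kinases, phosphorylates eIF2alpha, which favours translation of ATF4, and ATF4 with CHOP (DDIT3) raises amino acid transporters, amino acid synthesis and tRNA synthetases; because non-ER kinases also feed into it, this branch is called the integrated stress response.

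The line difference passed an adjusted p of 0.05 (limma, Benjamini-Hochberg over the 10483 genes, 24 libraries in the fit) for 2410 genes, 23.0% of those tested. The response was higher in HPDE for 1190 genes (11.4%) and lower in HPDE for 1220 (11.6%), and 229 genes (2.18%) had a line difference of 1 or more in size (log2). The median line difference over all genes was -0.01, with quartiles of -0.22 and 0.22. Across genes, which are not independent replicates, the responses of the lines correlated with Pearson's r = 0.660 and Spearman's rho = 0.633 (n = 10483). Without replicate 3 of HPNE residual medium, 2109 genes (20.1%) were higher and 1413 (13.5%) lower in HPDE, and the number at or above 1 was 457. Of the 2410 genes, 2253 were called there too, all with the same sign. In bulk RNA, fewer cells of a kind and less RNA per cell cannot be told apart.

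Within HPDE, vesicles raised 3405 of these genes (32.5%) and lowered 3817 (36.4%) relative to residual medium, by limma on the 12 HPDE libraries. Within HPNE they raised 2135 (20.4%) and lowered 2099 (20.0%), with a wider spread between replicates. Among the 1190 genes higher in HPDE, 533 rose in HPDE without a call in HPNE, 243 fell in HPNE without a call in HPDE, 147 fell in both lines and 99 rose in both. Another 141 rose in HPDE and fell in HPNE, and 27 were called in neither line. The 1220 genes lower in HPDE comprised 539 that fell in HPDE with no call in HPNE, 292 that rose in HPNE with no call in HPDE, 171 that rose in both, 131 that fell in HPDE and rose in HPNE, 60 that fell in both and 27 called in neither. Altogether 272 genes, 2.59% of those tested, moved in opposite directions.

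**Figure D1:**
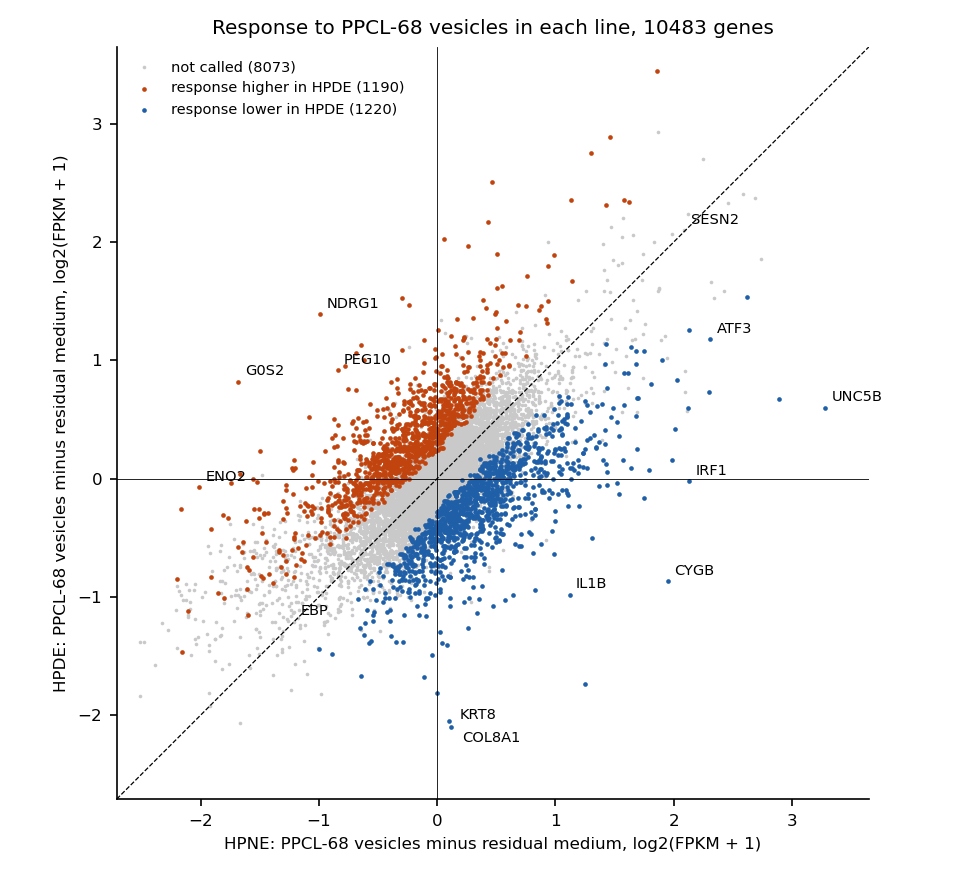
Response to PPCL-68 vesicles in HPNE (horizontal) and HPDE (vertical), each point 1 of 10483 genes, as log2(FPKM + 1) with vesicles minus residual medium; orange marks the 1190 genes called higher in HPDE, blue the 1220 called lower, grey the rest, and the dashed line equal responses. The responses correlated across genes (Pearson's r = 0.660), and the line difference had quartiles of -0.22 and 0.22. CYGB and IL1B sit in the lower right quadrant and G0S2 and PEG10 in the upper left.

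The choice of reference changed which genes were called. With untreated samples as reference in both lines, 2058 genes (19.6%) were higher and 1971 (18.8%) lower in HPDE. Of the 2410 genes, 1363 were called with that reference as well, 1265 of them with the same sign, and the correlation of responses over the same genes was r = 0.459. Lists are therefore also given against untreated cells, and so is each named gene whose call was lost or whose sign turned. The lists and their members were chosen with earlier results of these data known, so their counts are a description and not a test. List counts are to be read beside the shares of all genes called. These were 11.4% higher and 11.6% lower in HPDE against residual medium, and 19.6% and 18.8% against untreated cells. Without replicate 3 of HPNE residual medium they were 20.1% and 13.5%.

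Genes that moved in opposite directions are described first. G0S2, an inhibitor of the triglyceride lipase ATGL (ENSG00000123689, chromosome 1, 209848765 to 209849733, hg19), read 1263, 1116 and 1198 FPKM in HPDE with residual medium and 2017, 2248 and 2050.00 FPKM with vesicles. In HPNE it read 189.9, 199 and 94.7 FPKM with residual medium and 59.6, 40.3 and 43.7 FPKM with vesicles. All 3 treated HPDE samples lay above their controls and all 3 treated HPNE samples below theirs. The line difference was 2.50 ± 0.28 (SE, adjusted p = 4.04e-06, limma), from 0.82 in HPDE and -1.68 in HPNE. Untreated HPNE cells held only 9.36, 10.7 and 13.6 FPKM, below all vesicle samples of that line, and with untreated cells as reference the line difference of G0S2 turned to -0.97 (adjusted p = 0.00993).

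CYGB, the globin cytoglobin (chromosome 17, 74523438 to 74547257), went from 107, 78.5 and 88.6 to 46.1, 51.3 and 49.6 FPKM in HPDE and from 13.5, 11.7 and 29.7 to 119.9, 49.98 and 51.6 FPKM in HPNE. Both HPNE libraries that lay apart were the highest of their group for CYGB, and the line difference was -2.82 ± 0.43 (adjusted p = 9.05e-05) with them and -2.80 (adjusted p = 6.46e-07) without both. Untreated HPNE cells held 150.4, 141 and 93.9 FPKM, so that CYGB showed 0.50 (adjusted p = 0.365) with untreated cells as reference.

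IL1B, the inflammatory cytokine interleukin 1 beta (chromosome 2, 113587328 to 113594480), fell in HPDE from 391, 335 and 323 to 173, 170.3 and 187 FPKM and rose in HPNE from 52.003, 46.6 and 26.01 to 84.3, 85.1 and 94.4 FPKM. Untreated cells had 102, 104 and 95.2 FPKM in HPDE and 1.60, 1.82 and 2.02 FPKM in HPNE, so residual medium by itself stood above fresh medium in both lines. The line difference of IL1B was -2.10 ± 0.27 (adjusted p = 1.91e-05) against residual medium and -4.18 (adjusted p = 2.35e-09) against untreated cells. Set against untreated cells, IL1B was higher with vesicles in both lines, by 0.81 in HPDE and 4.98 in HPNE. PEG10, an imprinted gene derived from a retrotransposon (chromosome 7, 94285637 to 94299007), rose in HPDE from 15.3, 18.2 and 18.4 to 33.6, 32.5 and 34.8 FPKM and fell in HPNE from 8.64, 8.49 and 6.04 to 4.08, 3.72 and 3.68 FPKM. Its line difference of 1.77 ± 0.20 (adjusted p = 5.26e-06) was 0.96 with untreated cells as reference. Untreated HPDE cells held 37.1, 34.9 and 35.5 FPKM of PEG10. Its responses against untreated cells were -0.09 in HPDE and -1.05 in HPNE. RTP4, an interferon-induced receptor transporter (chromosome 3, 187086120 to 187089864), was weakly expressed, at 6.91, 6.50 and 6.06 against 2.84, 3.53 and 2.40 FPKM in HPDE and 0.405, 0.272 and 0.656 against 1.67, 1.90 and 1.16 FPKM in HPNE. It differed between the lines by -1.77 ± 0.17 (adjusted p = 1.14e-06).

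**Figure D2:**
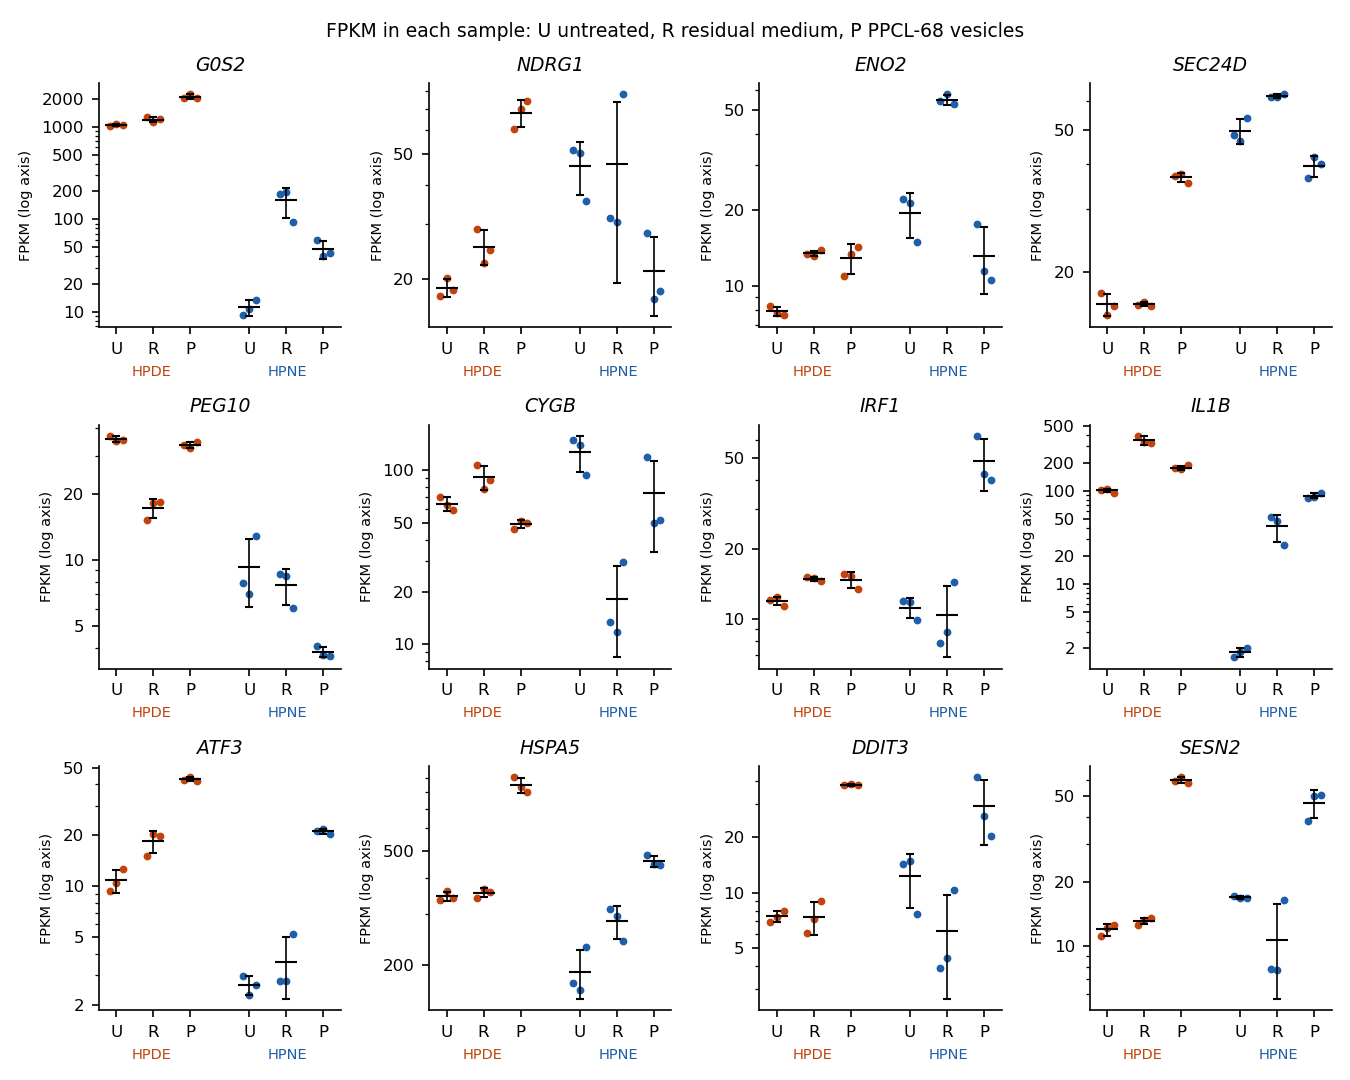
FPKM of 12 genes in each sample (log axes): untreated (U), residual medium (R) and PPCL-68 vesicles (P) in HPDE (orange) and HPNE (blue), with 3 points per group, the horizontal tick at their mean and bars of 1 SD. G0S2, PEG10, CYGB and IL1B moved in opposite directions from R to P, while SESN2 and DDIT3 rose in both lines.

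The sensors of ER stress and their transcription factors had a higher response in HPDE for 6 of 12 genes tested and a lower one for none, with a median line difference of 0.28. Against untreated cells 3 were higher and 1 lower, with a median of 0.26. ERN1, which encodes IRE1, rose from 2.45, 2.67 and 3.10 to 16.2, 17.8 and 20.8 FPKM in HPDE and from 3.99, 4.28 and 4.16 to 13.6, 15.8 and 13.7 FPKM in HPNE. It rose in both lines without overlap, by 2.36 in HPDE and 1.58 in HPNE, and the line difference was 0.78 ± 0.20 (adjusted p = 0.00862). Against untreated cells ERN1 differed by 0.41 and was not called (adjusted p = 0.118). EIF2AK3, which encodes PERK, rose in HPDE from 2.88, 3.16 and 2.75 to 4.97, 4.89 and 5.02 FPKM and showed 5.37, 4.93 and 5.97 against 4.61, 4.13 and 4.40 FPKM in HPNE, where its response of -0.25 was not called (adjusted p = 0.146). The EIF2AK3 line difference of 0.86 ± 0.15 (adjusted p = 0.000334) was 0.97 (adjusted p = 5.06e-05) against untreated cells. CREB3L2, an ER-bound transcription factor of the ATF6 type, had 8.78, 10.2 and 9.57 and 16.3, 15.997 and 17.8 FPKM in HPDE, 61.01, 64.3 and 68.3 and 53.1, 61.4 and 61.7 FPKM in HPNE and a line difference of 0.89 ± 0.13 (adjusted p = 4.28e-05); against untreated cells it was 0.30 (adjusted p = 0.0617). XBP1 rose in both lines, from 58.6, 56.8 and 55.4 to 153, 145 and 142 FPKM in HPDE and from 64.02, 63.2 and 71.5 to 113, 131 and 135 FPKM in HPNE, and its line difference was 0.43 ± 0.12 (adjusted p = 0.0116). Gene-level FPKM does not separate spliced from unspliced XBP1.

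ER chaperones and folding enzymes were the folding group that set the lines apart most often. Of 25 genes tested, 20 had a higher response in HPDE and none a lower one, where 11.4% of all genes tested were higher, with a median line difference of 0.66, and their median response was 0.37 in HPDE and -0.35 in HPNE. HSPA5, which encodes the chaperone BiP (chromosome 9, 127997132 to 128003609), rose in HPDE from 343, 368 and 358 to 903, 837 and 799 FPKM and in HPNE from 313, 295 and 241 to 481, 449.97 and 444 FPKM. The groups of each line did not overlap, and the line difference of HSPA5 was 0.54 ± 0.18 (adjusted p = 0.0309). That call was kept in 4 of the 12 fits that left out 1 compared library each, with adjusted p up to 0.0826, and the difference was -0.01 (adjusted p = 0.980) against untreated cells. P4HB, a protein disulfide isomerase, went from 196, 198 and 196 to 314, 307 and 297 FPKM in HPDE and from 406, 395 and 388 to 263, 263 and 277 FPKM in HPNE, so it rose in 1 line and fell in the other. Its line difference of 1.20 ± 0.12 (adjusted p = 1.09e-06) was 0.50 (adjusted p = 0.00248) against untreated cells. ERO1L, the oxidase that recharges disulfide isomerases, went from 62.6, 71.4 and 71.2 to 88.4, 83.7 and 87.6 FPKM in HPDE and from 52.8, 52.4 and 52.7 to 34.1, 28.8 and 27.2 FPKM in HPNE. ERO1L differed by 1.14 ± 0.14 (adjusted p = 1.17e-05), but by 0.15 (adjusted p = 0.400) with untreated cells as reference. CRELD2, a secreted ER stress gene, had 7.19, 6.35 and 7.55 and 10.7, 11.01 and 9.21 FPKM in HPDE and 17.6, 17.1 and 12.7 and 9.94, 9.42 and 10.5 FPKM in HPNE, a line difference of 1.10 ± 0.19 (adjusted p = 0.000329).

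With untreated cells as reference 9 of the 25 chaperone genes were called higher in HPDE and none lower. The shares over all genes were 19.6% and 18.8%, and the median line difference of the list was 0.23. The mean of the 25 genes in each library gives the levels behind these counts. Set at 0 for the mean of residual medium in each line, HPDE libraries read 0.54, 0.54 and 0.44 with vesicles and -0.06, 0.01 and -0.04 untreated. HPNE libraries read -0.17, -0.26 and -0.24 with vesicles, 0.08, 0.08 and -0.17 with residual medium, and -0.56, -0.57 and -0.28 untreated. In HPNE the vesicle samples thus lay between fresh and residual medium, and replicate 3 of residual medium read the same as a vesicle sample. Without that replicate, 21 of the 25 genes were higher in HPDE and none lower, with a median of 0.81.

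The ER stress element, CCAAT followed by 9 unspecified bases and CCACG (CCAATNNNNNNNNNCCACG), is the motif through which ATF6 and XBP1 are known to act with NF-Y. It was searched on both strands in the 250 bases before the start of each gene in RefSeq's promoter table (GRCh38.p14). It was found in 6 of 23 promoters of the ER chaperone list that matched by symbol (26.1%), in 14 of 7700 tested genes with a promoter in the table (0.182%) and in 22 of 27305 promoters in all (0.0806%). None of 13 ERAD, 19 translocation and glycosylation and 21 ER to Golgi promoters held it in this window. The lists were written from knowledge of ER stress genes, with earlier results of these data known. This share therefore describes the list and is not a test. The match is shown in capitals for the 3 members that hold it and had a called line difference. They differ in the 9 inner bases and share both ends.
HSPA5: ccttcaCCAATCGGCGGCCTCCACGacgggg
CANX: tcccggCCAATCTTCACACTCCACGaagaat
CRELD2: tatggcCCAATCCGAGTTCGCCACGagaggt
The HSPA5 stretch lies at chr9:125241385-125241415 on the minus strand, the strand of the gene, and its last motif base is at position -48 from the start of the gene. The CANX stretch is at chr5:179698772-179698802 on the plus strand, and that of CRELD2 is at chr22:49918548-49918578, read on the minus strand and so opposite to the gene. CANX, which encodes the lectin chaperone calnexin, had responses of 0.82 in HPDE and 0.16 in HPNE and a line difference of 0.66 (adjusted p = 0.000147). Of the other motif holders, HSP90B1, CALR and ERO1LB had line differences of 0.51, 0.58 and 0.30 that were not called (adjusted p = 0.0643, 0.185 and 0.279).

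ER to Golgi transport genes had a higher response in HPDE for 19 of 24 genes and a lower one for none, with a median line difference of 0.60. SEC24D, a cargo-binding subunit of the COPII coat (chromosome 4, 119643978 to 119759838), rose in HPDE from 16.2, 16.5 and 16.1 to 37.2, 37.7 and 35.6 FPKM and fell in HPNE from 61.9, 61.6 and 62.9 to 36.6, 41.9 and 40.2 FPKM. Treated samples of both lines came to overlap in level, at 35.6 to 41.9 FPKM, from control values that were far apart. The line difference was 1.77 ± 0.11 (adjusted p = 1.45e-09) and 1.46 (adjusted p = 8.75e-09) against untreated cells. KDELR3, a receptor that returns ER proteins from the Golgi, read 5.75, 5.73 and 6.76 and 5.79, 6.09 and 6.39 FPKM in HPDE (adjusted p = 0.963) and fell in HPNE from 72.04, 68.3 and 51.9 to 16.6, 22.3 and 24.3 FPKM. Its line difference was 1.57 ± 0.21 (adjusted p = 2.47e-05). COPG1, a coat subunit of COPI vesicles, rose in HPDE from 44.3, 46.2 and 45.95 to 76.05, 76.7 and 74.8 FPKM and read 94.8, 92.3 and 93.5 and 83.3, 78.6 and 82.6 FPKM in HPNE, a line difference of 0.92 ± 0.08 (adjusted p = 1.36e-07). With untreated cells as reference, 11 of the 24 transport genes were higher in HPDE and 1 lower, with a median of 0.25.

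In ERAD, 9 of 15 genes had a higher response in HPDE and none a lower one, with a median of 0.47, and the count was 10 with none lower and a median of 0.46 against untreated cells. EDEM3, which trims mannose from misfolded glycoproteins, went from 9.20, 9.40 and 9.62 to 14.8, 15.01 and 15.8 FPKM in HPDE and read 21.9, 23.5 and 19.01 and 17.6, 18.6 and 18.1 FPKM in HPNE. ERLEC1, an ER lectin, went from 17.9998, 18.9 and 17.9 to 32.9, 33.2 and 31.1 FPKM in HPDE and read 40.3, 40.1 and 43.9 and 46.3, 37.5 and 38.2 FPKM in HPNE. The line differences of EDEM3 and ERLEC1 were 0.87 ± 0.12 and 0.83 ± 0.09 (adjusted p = 3.55e-05 and 4.45e-06). HERPUD1, an ERAD scaffold, rose in both lines, from 26.6, 29.7 and 27.6 to 78.4, 80.7 and 76.5 FPKM in HPDE and from 60.6, 64.4 and 102 to 133, 139 and 135 FPKM in HPNE. Replicate 3 of HPNE residual medium was its highest control, and the line difference of 0.58 ± 0.17 (adjusted p = 0.0183) was 0.35 (adjusted p = 0.00584) without it.

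Genes of ER translocation and N-glycosylation were higher in HPDE for 13 of 23 and lower for 1, with a median of 0.33. SEC11C, a signal peptidase subunit, went from 25.6, 27.4 and 32.4 to 58.2, 59.7 and 52.4 FPKM in HPDE and read 14.4, 14.9 and 9.96 and 10.9, 13.3 and 11.4 FPKM in HPNE, with a line difference of 1.09 ± 0.19 (adjusted p = 0.000344). OSTC, a subunit of the oligosaccharyltransferase, differed by 1.04 ± 0.11 (adjusted p = 1.93e-06), with 68.99, 80.8 and 80.3 and 143, 142 and 130.3 FPKM in HPDE. SEC61G, a subunit of the translocation channel, differed by 1.01 ± 0.20 (adjusted p = 0.00110) against residual medium and by -0.16 (adjusted p = 0.555) against untreated cells. The list as a whole had 7 genes higher, 3 lower and a median of 0.01 with the untreated reference.

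The ATF4 and CHOP arm did not separate the lines in the same manner. Its listed member NUPR1 was not tested, with a mean of 0.366 FPKM in HPDE and 155 FPKM in HPNE. Of 16 genes tested, 15 rose in HPDE and 15 in HPNE, with median responses of 1.27 and 1.45, and the line difference was called for a single gene, ATF3, which was lower in HPDE. DDIT3, which encodes CHOP, read 6.03, 7.16 and 8.99 FPKM with residual medium and 37.9, 38.6 and 38.1 FPKM with vesicles in HPDE, and 3.91, 4.43 and 10.3 and 42.04, 25.9 and 20.2 FPKM in HPNE. Vesicle samples lay above controls in both lines, and the line difference of DDIT3 was 0.12 with a 95% interval of -0.66 to 0.90 (adjusted p = 0.845). Untreated HPNE cells already held 14.3, 14.8 and 7.62 FPKM, and against untreated cells DDIT3 differed by 1.03 (adjusted p = 0.0352). ATF4 rose in both lines, from 117, 120.4 and 115 to 179, 175 and 167 FPKM in HPDE and from 125, 138 and 231 to 302, 259 and 264 FPKM in HPNE, where replicate 3 of residual medium stood well above the other pair. Its line difference of -0.23 (adjusted p = 0.474) was -0.50 (adjusted p = 0.00727) without that replicate. ATF3, a stress-induced repressor, rose from 15.2, 20.4 and 19.9 to 42.2, 44.2 and 42.1 FPKM in HPDE and from 2.76, 2.77 and 5.25 to 21.2, 21.8 and 20.5 FPKM in HPNE. The HPNE samples started lower and ended lower, but the log2 rise was larger, 2.31 against 1.18, a line difference of -1.13 ± 0.23 (adjusted p = 0.00154).

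The count in this list rested on replicate 3 of HPNE residual medium. The mean of the 16 genes, relative to the residual medium mean of the line, was -0.34, -0.25 and 0.59 in the 3 HPNE residual medium libraries and 1.62, 1.50 and 1.49 with vesicles, against 1.34, 1.42 and 1.35 in HPDE with vesicles. Without that replicate, 8 of the 16 genes had a lower response in HPDE, none a higher one, and the median line difference was -0.36. Against untreated cells 4 genes were higher and 3 lower, with a median of 0.23.

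Amino acid transporters followed the ATF4 arm in rising in both lines, 11 of 12 in each, with medians of 0.95 in HPDE and 1.66 in HPNE and with 3 genes lower and none higher in HPDE. With the untreated reference 6 were lower and 1 higher, with a median of -0.30. SLC7A2, which imports cationic amino acids, rose from 5.22, 5.51 and 5.15 to 8.58, 8.87 and 9.65 FPKM in HPDE and from 28.9, 35.1 and 32.1 to 161, 303 and 295 FPKM in HPNE. Neither line showed overlap between its groups, and the line difference of SLC7A2 was -2.22 ± 0.24 (adjusted p = 2.37e-06) and -4.98 (adjusted p = 2.21e-11) against untreated cells. SLC3A2, the shared heavy chain of several exchangers, differed by -0.90 ± 0.26 (adjusted p = 0.0178), a call kept in 10 of 12 fits that left out 1 library. SLC38A1, a glutamine transporter, differed by -0.68 (adjusted p = 0.0399) and kept its call in 2 of those 12 fits.

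Synthesis of serine, one-carbon units, asparagine and proline was higher in HPDE for 3 of 12 genes and lower for 1, and against untreated cells for 2 and 1. ALDH18A1, which starts proline synthesis, read 43.5, 46.6 and 45.4 and 47.6, 45.1 and 46.1 FPKM in HPDE (adjusted p = 0.462) and fell in HPNE from 38.6, 36.7 and 40.5 to 18.7, 17.8 and 17.4 FPKM. Its line difference was 1.10 ± 0.10 (adjusted p = 4.39e-07). PYCR1, the last enzyme of that pathway, differed by 0.81 ± 0.23 (adjusted p = 0.0133; 0.58 and adjusted p = 0.0528 without both HPNE libraries that lay apart). Against untreated cells PYCR1 differed by 0.35 (adjusted p = 0.228). MTHFD2, a mitochondrial folate enzyme, differed the other way, by -0.69 (adjusted p = 0.0298), with a call in 4 of 12 fits. Cytosolic aminoacyl-tRNA synthetases had 2 genes higher and 2 lower of 20, shares close to the 11.4% and 11.6% over all genes. Their median was -0.01, and 2 were higher and 6 lower against untreated cells. AARS was the highest, with 65.01, 72.9 and 74.4 and 157, 159.9 and 158 FPKM in HPDE and 56.6, 55.9 and 89.7 and 106, 84.2 and 82.2 FPKM in HPNE and a line difference of 0.70 ± 0.18 (adjusted p = 0.00909). TARS and NARS differed by -0.38 and -0.39 (adjusted p = 0.0132 and 0.0219), and the NARS call held in 6 of 12 fits.

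**Figure D3:**
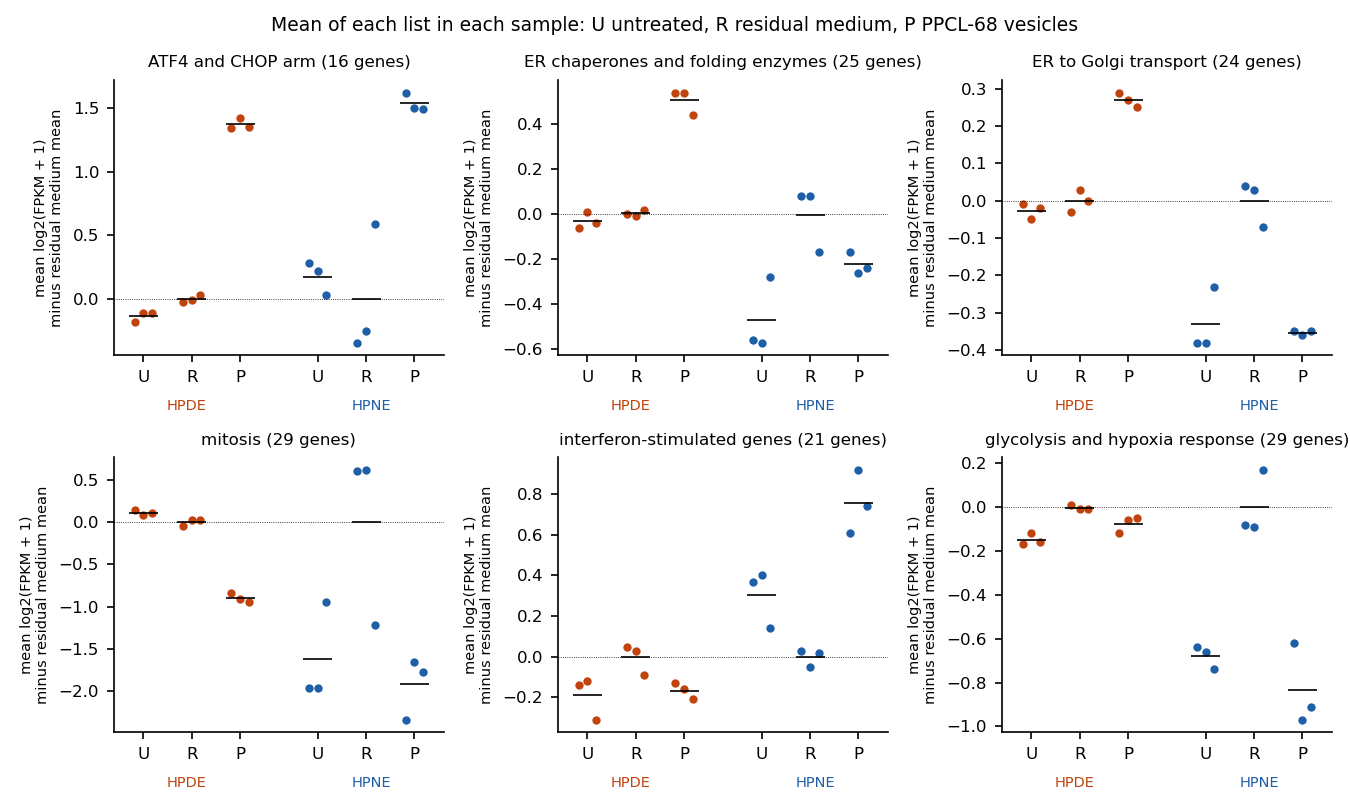
Mean of log2(FPKM + 1) over the tested members of 6 gene lists in each sample, relative to the mean of residual medium (R) in the same line, with untreated (U) and PPCL-68 vesicles (P); points are samples and black lines their means. ER chaperones and ER to Golgi genes rose from R to P in HPDE and not in HPNE, the ATF4 and CHOP arm rose in both, and 1 of the 3 HPNE residual medium samples stood apart for the ATF4 arm (0.59) and for mitosis (-1.22).

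Glycolysis and hypoxia genes had a higher response in HPDE for 20 of 29 and a lower one for none, with a median line difference of 0.68. The median response was -0.13 in HPDE and -0.99 in HPNE, and 14 of the 29 fell in HPDE and 21 in HPNE. NDRG1, a hypoxia- and stress-responsive gene, rose in HPDE from 28.9, 22.5 and 24.7 to 60.3, 69.8 and 73.9 FPKM and read 31.4, 30.3 and 78.03 and 28.1, 17.2 and 18.3 FPKM in HPNE. Its HPNE response of -0.99 was not called (adjusted p = 0.0558), and replicate 3 of residual medium was far above the other HPNE samples. The line difference of NDRG1 was 2.38 ± 0.41 (adjusted p = 0.000317), 1.94 (adjusted p = 0.000154) without that replicate and 2.89 (adjusted p = 2.31e-05) against untreated cells. ENO2, a glycolytic enolase, read 13.4, 13.1 and 13.8 and 10.9, 13.3 and 14.3 FPKM in HPDE (adjusted p = 0.465) and fell in HPNE from 53.999, 57.6 and 52.5 to 17.6, 11.4 and 10.5 FPKM. Its line difference was 1.94 ± 0.29 (adjusted p = 8.49e-05). PDK1, the kinase that restrains pyruvate dehydrogenase, read 4.54, 4.85 and 5.07 and 4.70, 5.10 and 5.09 FPKM in HPDE and fell from 12.2, 12.5 and 14.5 to 3.97, 3.22 and 3.07 FPKM in HPNE, a line difference of 1.71 ± 0.19 (adjusted p = 3.1e-06). Untreated HPNE cells held 5.004, 4.29 and 5.34 FPKM of PDK1, closer to the vesicle samples than to residual medium, and the line difference was 0.53 (adjusted p = 0.0307) with untreated cells as reference. Over the 29 genes, HPNE libraries read -0.64, -0.66 and -0.74 untreated and -0.62, -0.97 and -0.91 with vesicles relative to residual medium. The untreated reference left 8 genes higher and 5 lower in HPDE, with a median of 0.11, where 19.6% and 18.8% of all genes were called.

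Interferon-stimulated genes went the other way. Of 21 tested, 17 had a lower response in HPDE and none a higher one, and the median line difference was -0.95, from median responses of -0.10 in HPDE and 0.87 in HPNE. IRF1, a transcription factor of the interferon response (chromosome 5, 131817301 to 131826490), read 15.2, 15.05 and 14.6 and 15.6, 15.3 and 13.5 FPKM in HPDE (adjusted p = 0.821) and rose in HPNE from 7.82, 8.81 and 14.4 to 62.4, 42.4 and 40.1 FPKM. The line difference was -2.15 ± 0.23 (adjusted p = 2.42e-06) and -1.70 (adjusted p = 1.47e-05) against untreated cells. IFI35 fell in HPDE from 103, 96.2 and 85.5 to 63.7, 63.5 and 65.3 FPKM and rose in HPNE from 16.6, 15.7 and 24.6 to 35.4, 34.4 and 35.5 FPKM, a line difference of -1.43 ± 0.19 (adjusted p = 2.75e-05). PARP14, a mono-ADP-ribosyltransferase, read 53.1, 53.9 and 49.6 and 47.7, 46.7 and 51.7 FPKM in HPDE and rose in HPNE from 6.60, 6.73 and 8.50 to 15.6, 18.2 and 15.9 FPKM, a line difference of -1.19 ± 0.12 (adjusted p = 1.98e-06). All 6 HPDE samples lay above all 6 HPNE samples for both IFI35 and PARP14, although the rise was in HPNE. With untreated cells as reference 12 of the 21 genes were lower in HPDE and 2 higher, with a median of -0.63. Without replicate 3 of HPNE residual medium 15 were lower and none higher. Another 6 listed genes (IFI27, OAS1, OAS3, OASL, IRF9 and HERC5) were not tested, since their mean in HPNE was below 1 FPKM.

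The interferon-stimulated response element, searched as GAAANNGAAA on both strands in the same windows, is the site bound by the ISGF3 complex and by IRF factors. It was found in 9 of 17 matched promoters of this list (52.9%), in 179 of 7700 tested genes with a promoter (2.32%) and in 839 of 27305 promoters in all (3.07%). This list too was written from knowledge of such genes, with earlier results of these data known. The share therefore describes the list and is not a test. The stretches below show it in capitals for the 4 members that hold it with the lowest adjusted p of the line difference, 1 match each, so that the 2 inner bases can be compared; IFIT3, IFIH1 and IFIT5 hold further matches that are not shown.
PARP14: ggaaacGAAAGCGAAAgagtca
IFIT3: aaactgGAAAGTGAAActaatt
IFIH1: agaatcGAAACAGAAAccaaag
IFIT5: gcttcaGAAACCGAAActtaat
They lie at chr3:122680804-122680825 (PARP14, plus strand), chr10:89327869-89327890 (IFIT3, read on the minus strand, opposite to the gene), chr2:162318690-162318711 (IFIH1, minus strand, the strand of the gene) and chr10:89414517-89414538 (IFIT5, read on the minus strand, opposite to the gene), all in GRCh38.p14. IFIT3, an RNA-binding antiviral protein, had responses of -0.10 in HPDE and 0.95 in HPNE (line difference -1.05, adjusted p = 7.36e-05). IFIH1, the sensor MDA5, had 0.07 and 1.16 (line difference -1.09, adjusted p = 0.000231). IFIT5 had -0.23 and 0.54 (line difference -0.77, adjusted p = 9.62e-06). Against untreated cells the line difference was 0.16 for IFIT3 (adjusted p = 0.440), -0.36 for IFIH1 (adjusted p = 0.116) and -0.47 for IFIT5 (adjusted p = 0.000641). CANX, HSP90B1, CALR, ERO1LB, IFIT3, IFIH1 and IFIT5 were named for their motif matches after their values were seen.

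NF-kB chemokines, cytokines and feedback inhibitors were lower in HPDE for 6 of 21 genes and higher for 2, with a median of -0.28. Compared with untreated cells, 17 of 21 were lower, with a median of -1.52. IL1A, CXCL5, CXCL6 and CCL2 were listed but not tested, because their mean was below 1 FPKM in at least 1 line. IL1A averaged 906 FPKM in HPDE and 0.486 FPKM in HPNE, and CXCL5 0.0764 and 72.9 FPKM. IL8, the neutrophil chemokine CXCL8, rose in HPNE from 1799, 1818 and 859 to 2817, 2333 and 2393 FPKM (0.83, adjusted p = 0.0424). In HPDE it read 175, 226 and 226 FPKM and then 193, 167 and 161 FPKM, ranges that overlapped, with a response of -0.26 (adjusted p = 0.0244). Untreated HPNE cells held only 2.31, 2.64 and 4.70 FPKM, far below HPNE cells in residual medium, and the IL8 line difference of -1.09 (adjusted p = 0.0197) was -6.98 against untreated cells. Without both HPNE libraries that lay apart it was -0.65 and was not called (adjusted p = 0.0620). BIRC3, an inhibitor of apoptosis that NF-kB induces, differed by -1.34 ± 0.39 (adjusted p = 0.0161). In HPNE its residual medium values were 3.33, 4.15 and 0.519 FPKM, and without replicate 3 the line difference was -0.80 (adjusted p = 0.00253) and without both libraries that lay apart -0.68 (adjusted p = 0.00641). PTX3, a long pentraxin of innate immunity, read 1.52, 2.96 and 2.95 and 1.78, 2.12 and 2.28 FPKM in HPDE and rose in HPNE from 107, 103 and 115 to 495, 405 and 246 FPKM, with a line difference of -1.91 ± 0.30 (adjusted p = 0.000154).

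AP-1, immediate-early and ERK output genes were mixed, with 2 of 25 higher and 6 lower in HPDE, where 11.4% and 11.6% of all genes were called. Against untreated cells 4 were higher and 8 lower. HBEGF, a ligand of the EGF receptor, rose in HPDE from 59.04, 62.3 and 61.4 to 104, 102 and 102 FPKM and read 10.3, 10.04 and 6.04 and 5.01, 5.29 and 4.55 FPKM in HPNE, a line difference of 1.43 ± 0.27 (adjusted p = 0.00081). DUSP6, a phosphatase of ERK, differed by -1.13 (adjusted p = 0.0182, called in 11 of the 12 fits that left out 1 library), and DUSP5, another, by 0.97 (adjusted p = 0.0401, called in 3 of 12 fits). With untreated cells as reference DUSP5 differed by -0.53 (adjusted p = 0.215). EGR2, an immediate-early transcription factor, read 1.76, 1.56 and 1.77 and 2.17, 1.996 and 1.84 FPKM in HPDE and rose in HPNE from 0.298, 0.305 and 1.32 to 4.61, 6.28 and 5.002 FPKM, a line difference of -1.83 ± 0.36 (adjusted p = 0.00107). Untreated HPNE cells held 5.33, 4.74 and 2.75 FPKM of EGR2, and against them the difference was -0.27 (adjusted p = 0.576).

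Targets of p53 were lower in HPDE for 7 of 22 genes and higher for 1, with a median of -0.23, but 9 were higher and 3 lower against untreated cells. PMAIP1, the BH3-only protein NOXA, read 82.99, 83.5 and 81.96 and 93.3, 88.98 and 82.8 FPKM in HPDE and rose in HPNE from 11.8, 15.01 and 10.4 to 31.8, 44.3 and 46.6 FPKM. The line difference of PMAIP1 was -1.55 ± 0.22 (adjusted p = 5.31e-05) and -1.60 against untreated cells. GADD45A, a growth arrest gene that ATF4 and p53 both induce, rose in both lines, from 71.7, 77.4 and 78.8 to 133, 147 and 129 FPKM in HPDE and from 40.8, 45.99 and 45.4 to 157, 202 and 194 FPKM in HPNE, a line difference of -1.20 ± 0.25 (adjusted p = 0.00151). PLK2, a polo-like kinase, fell in HPDE from 40.7, 42.8 and 41.4 to 19.2, 15.7 and 15.7 FPKM and was not called in HPNE (2.20, 2.05 and 1.84 and 2.22, 2.65 and 3.09 FPKM, adjusted p = 0.318). PLK2 differed by -1.53 ± 0.22 (adjusted p = 4.68e-05), but by 0.19 (adjusted p = 0.508) against untreated cells.

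Among protein turnover genes, the proteasome was lower in HPDE for 10 of 30 subunits and higher for none, with a median of -0.22. PSMA4 fell in HPDE from 85.8, 86.03 and 85.2 to 59.9, 54.6 and 55.5 FPKM and read 42.2, 42.2 and 39.04 and 50.2, 42.4 and 41.1 FPKM in HPNE, a line difference of -0.70 ± 0.09 (adjusted p = 2.3e-05), and 22 subunits were lower against untreated cells. Autophagy and lysosome genes had 6 of 33 higher and 3 lower, with a median of -0.05, where 11.4% and 11.6% of all genes were called. MAP1LC3B, the autophagosome protein LC3B, rose from 34.8, 37.9 and 38.98 to 273, 257 and 238 FPKM in HPDE and from 34.9, 36.8 and 42.2 to 82.6, 103 and 99.2 FPKM in HPNE. The line difference of MAP1LC3B was 1.45 ± 0.16 (adjusted p = 3.73e-06) and 1.96 (adjusted p = 3.62e-08) against untreated cells. SQSTM1, the cargo receptor p62, rose from 66.2, 63.9 and 70.9 to 348, 353 and 329.98 FPKM in HPDE and from 103, 106 and 119.6 to 343, 317 and 355 FPKM in HPNE, ending at overlapping levels, with a line difference of 0.72 ± 0.11 (adjusted p = 0.000139). With the untreated reference 21 of the 33 were higher in HPDE and 1 lower. Heat shock chaperones of the cytosol and mitochondria were lower in HPDE for 3 of 20, a share close to the 11.6% over all genes, and higher for none. Against untreated cells 11 were lower and 2 higher, with a median of -0.44. DNAJA1, a cochaperone of HSP70, fell in HPDE from 131, 131 and 129 to 78.7, 72.5 and 72.4 FPKM and differed by -0.61 ± 0.15 (adjusted p = 0.00701), or by -0.32 (adjusted p = 0.00744) without both HPNE libraries that lay apart. NRF2 antioxidant genes were lower in HPDE for 5 of 18 and higher for none, and with untreated cells as reference 8 were higher and 3 lower. PIR (pirin) fell in HPDE from 12.1, 11.3 and 9.96 to 4.89, 5.11 and 4.85 FPKM and read 1.89, 2.77 and 2.44 and 3.42, 2.63 and 3.84 FPKM in HPNE, a line difference of -1.37 ± 0.16 (adjusted p = 8.27e-06).

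Lipid synthesis fell in both lines. Of 22 cholesterol genes, 20 fell in HPDE and 17 in HPNE, with median responses of -0.80 and -1.14. A line difference was called for 3, all higher in HPDE, a share close to the 11.4% over all genes, and 4 were higher and 1 lower against untreated cells. MVD, an enzyme of the mevalonate pathway, fell from 27.7, 24.4 and 25.5 to 13.3, 14.8 and 14.8 FPKM in HPDE and from 31.6, 32.3 and 32.7 to 12.7, 10.7 and 10.97 FPKM in HPNE, a line difference of 0.60 ± 0.14 (adjusted p = 0.00333). Fatty acid synthesis had 1 called gene of 9, a share close to the 11.4% of all genes called higher. This was ACSS2, an acetyl-CoA synthetase, at 0.68 (adjusted p = 0.0499, called in 2 of 12 fits). Against untreated cells a single gene was called again. LXR targets had none of 7 called by limma or by limma voom (1 at an unadjusted p under 0.05 by limma), with line differences of -1.37 to 0.45, while 4 of 7 were higher against untreated cells, with a median of 1.53.

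Cell cycle genes fell in both lines, and how far the lines differed rested on 1 library. All 29 mitosis genes fell in HPDE and in HPNE, and 30 and 29 of 30 DNA replication genes did. The 29 mitosis genes all had a line difference above 0, with median responses of -0.90 in HPDE and -1.84 in HPNE, yet a single one was called, UBE2C, a ubiquitin-conjugating enzyme of the anaphase-promoting complex. UBE2C read 94.2, 97.8 and 95.5 and 81.1, 77.6 and 70.2 FPKM in HPDE and 47.04, 50.1 and 12.6 and 5.45, 10.7 and 10.1 FPKM in HPNE, where replicate 3 of residual medium was at the level of the vesicle samples. Its line difference of 1.44 ± 0.50 (adjusted p = 0.0416) was 2.07 (adjusted p = 0.0001) without that replicate. The UBE2C call held in 3 of the 12 fits that left out 1 library (adjusted p up to 0.121), and against untreated cells the difference was -0.42 (adjusted p = 0.522). The mean of the 29 genes was 0.60, 0.62 and -1.22 in the HPNE residual medium libraries, -2.34, -1.65 and -1.77 with vesicles and -1.96, -1.96 and -0.95 untreated. Without replicate 3 all 29 were called higher in HPDE, with a median line difference of 1.69, and of 30 DNA replication genes 16 were higher and none lower where none of the 30 was called with it by limma (1 at an unadjusted p under 0.05) and 1 by limma voom. Against untreated cells none of the 29 mitosis genes was called by limma (2 at an unadjusted p under 0.05) and the median was -0.76, and 17 replication genes were lower in HPDE.

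Matrix genes were divided, with 5 of 20 higher and 5 lower in HPDE, and 12 more of the 32 listed were not tested because their mean was below 1 FPKM in a line. Against untreated cells 6 were higher and 4 lower. THBS1, the matricellular protein thrombospondin 1, read 106, 98.9 and 97.1 and 97.02, 97.5 and 102 FPKM in HPDE and fell in HPNE from 294, 294 and 313 to 83.3, 114 and 118 FPKM, a line difference of 1.49 ± 0.23 (adjusted p = 0.000132) that was -0.24 (adjusted p = 0.434) against untreated cells. LAMB3, a laminin 332 chain of epithelial basement membrane, rose in HPDE from 776, 723 and 749.5 to 1863, 1958 and 1902 FPKM and read 40.1, 36.7 and 22.4 and 39.95, 33.4 and 35.5 FPKM in HPNE, a line difference of 1.18 ± 0.21 (adjusted p = 0.000523). Against untreated cells LAMB3 differed by 0.25 and was not called (adjusted p = 0.373). LOXL1, a collagen crosslinking oxidase, fell in HPNE from 50.6, 50.04 and 66.2 to 24.5, 22.5 and 22.9 FPKM and read 1.49, 1.58 and 1.59 and 2.003, 1.71 and 1.89 FPKM in HPDE, a line difference of 1.37 ± 0.17 (adjusted p = 1.06e-05). COL8A1, a chain of collagen VIII that lies outside the list, fell in HPDE from 16.1, 19.2 and 18.2 to 3.25, 3.15 and 3.74 FPKM and read 176, 179.6 and 233 and 194, 218 and 227 FPKM in HPNE, a line difference of -2.23 ± 0.25 (adjusted p = 3.79e-06).

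The other lists held few called members, where 11.6% of all genes were called lower. YAP-TEAD targets had 2 of 10 lower in HPDE and none higher, and genes of the mitochondrial genome 2 of 12 lower. Ribosomal proteins had 1 of 73 lower. Metallothioneins had none of 3 called by limma or limma voom (none at an unadjusted p under 0.05 either). All 12 genes of the mitochondrial genome nevertheless had a line difference below 0, with a median of -0.65. Of these 12, 7 fell in HPDE and none was called in HPNE. Their median line difference was 0.24 with untreated cells as reference. Against untreated cells 4 YAP-TEAD targets and 2 metallothioneins were lower in HPDE, 7 ribosomal proteins were higher, and none of the 12 mitochondrial genes was called by limma (0 at an unadjusted p under 0.05). Of the mitochondrial genes, MT-CO1, a cytochrome oxidase subunit, fell in HPDE from 1019, 995 and 1089.7 to 579, 499 and 462 FPKM and read 2076, 1938 and 1741 and 2582, 2185 and 2189 FPKM in HPNE. Its line difference was -1.29 ± 0.37 (adjusted p = 0.0167) and -0.06 (adjusted p = 0.904) against untreated cells. AXL, a receptor kinase counted among YAP targets, and AJUBA, a LIM protein, differed by -0.48 and -0.88 (adjusted p = 0.0367 and 0.0280), with calls in 4 and 6 of 12 fits.

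The remaining genes named under the rule had smaller differences. VIMP, an ERAD membrane protein, differed by 0.72 (adjusted p = 0.00141), having risen in HPDE, and by 0.32 (adjusted p = 0.0833) against untreated cells. DNAJB1 and HSPA9, chaperones of the cytosol and of mitochondria, differed by -0.42 and -0.40 (adjusted p = 0.0338 and 0.00836), and the DNAJB1 call held in 4 of 12 fits. The sterol genes TM7SF2 and HSD17B7 differed by 0.64 and 0.47 (adjusted p = 0.0148 and 0.0433), HSD17B7 with a call in 2 of 12 fits and at 0.31 (adjusted p = 0.147) against untreated cells. The proteasome subunits PSMB7 and PSMD8 differed by -0.59 and -0.54 (adjusted p = 8.53e-05 and 0.00654). The NRF2 genes ME1, malic enzyme, and GSR, glutathione reductase, differed by -0.50 and -0.49 (adjusted p = 0.00535 and 0.00458), and against untreated cells neither was called (ME1 0.10, adjusted p = 0.520; GSR -0.12, adjusted p = 0.421). CTSL1, the lysosomal protease cathepsin L, differed by -0.65 (adjusted p = 0.00272) and by 0.38 (adjusted p = 0.0410) against untreated cells. MT-ND6, a complex I subunit of the mitochondrial genome, read 232, 220.3 and 265 and 93.1, 101 and 75.9 FPKM in HPDE and 352, 324 and 302 and 419, 301 and 321 FPKM in HPNE, a line difference of -1.49 ± 0.40 (adjusted p = 0.0105). Against untreated cells MT-ND6 differed by -0.36 and was not called (adjusted p = 0.496). The ribosomal gene RPL24 differed by -0.32 (adjusted p = 0.0365) with a call in 5 of 12 fits, and by -0.12 (adjusted p = 0.382) against untreated cells.

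**Figure D4:**
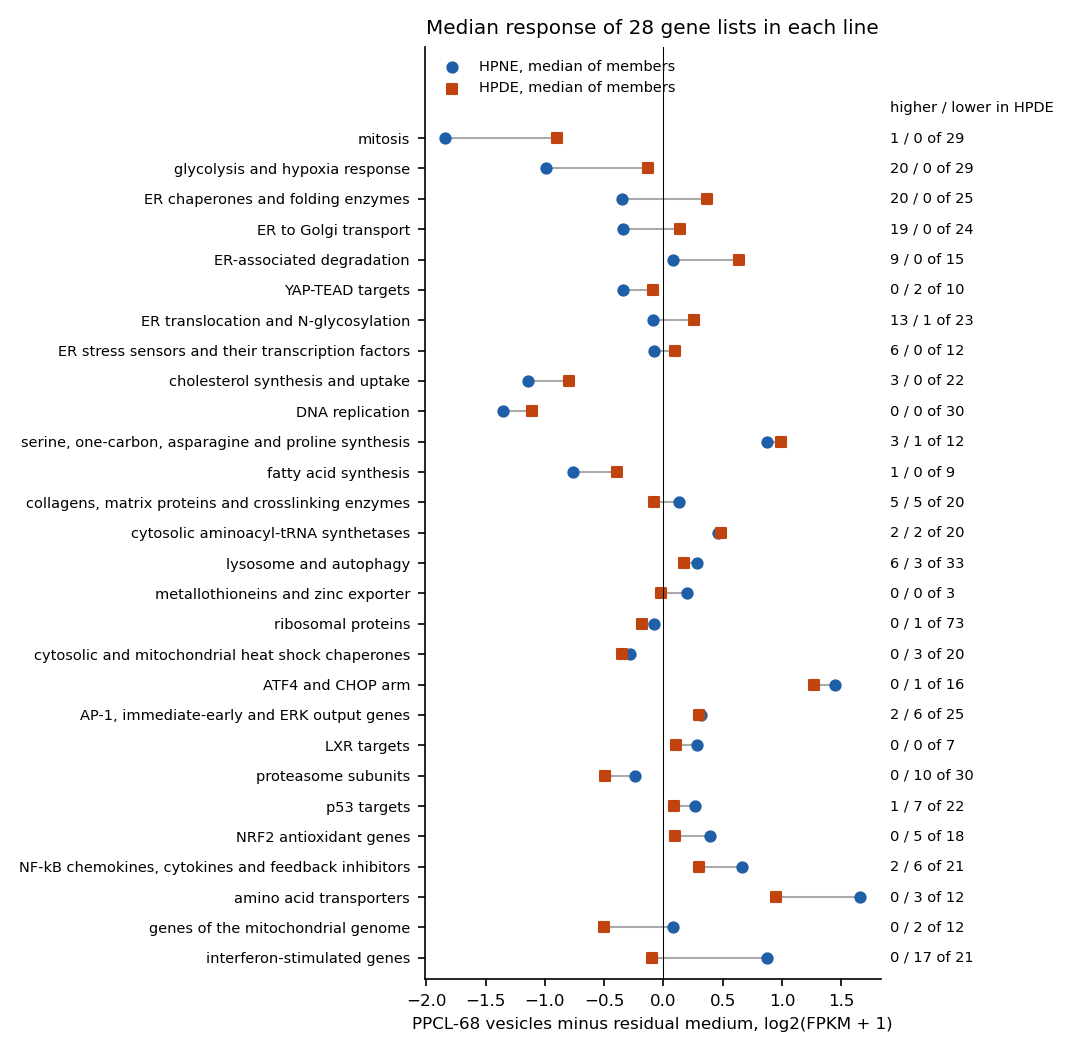
Median response of the tested members of 28 gene lists in HPDE (orange squares) and HPNE (blue circles), as log2(FPKM + 1) with vesicles minus residual medium, ordered by the median line difference, with the number of members called higher and lower in HPDE at the right. ER folding, ER to Golgi and glycolysis lists have 19 or 20 members called higher in HPDE, and interferon-stimulated genes have 17 of 21 called lower.

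Some of the largest single differences lay outside these lists. KIAA1551 rose in HPDE from 3.99, 5.27 and 4.77 to 30.8, 30.7 and 32.4 FPKM and in HPNE from 3.01, 3.06 and 2.47 to 4.25, 4.41 and 4.21 FPKM, a line difference of 2.05 ± 0.16 (adjusted p = 4.98e-08) that was 2.19 against untreated cells. H6PD, a dehydrogenase of the ER lumen that makes NADPH there, rose in HPDE from 1.22, 1.30 and 1.40 to 5.07, 5.83 and 6.11 FPKM and fell in HPNE from 42.6, 41.6 and 48.7 to 40.8, 33.8 and 33.1 FPKM. H6PD differed by 1.83 ± 0.12 (adjusted p = 4.79e-09). METRNL, a secreted factor, rose in HPDE from 3.68, 3.10 and 3.01 to 7.48, 9.66 and 6.63 FPKM and fell in HPNE from 89.2, 80.2 and 55.2 to 38.6, 47.2 and 50.4 FPKM, a line difference of 1.74 ± 0.21 (adjusted p = 8.26e-06) but 0.16 (adjusted p = 0.567) against untreated cells. MAP1B, a microtubule-associated protein, rose in HPDE from 2.82, 3.01 and 3.24 to 14.3, 15.3 and 16.5 FPKM, and in HPNE the 38.3, 42.2 and 24.1 FPKM of residual medium overlapped the 20.6, 46.97 and 45.5 FPKM of vesicles, with a line difference of 1.97 ± 0.40 (adjusted p = 0.00145). SFRP1, a secreted WNT antagonist, fell in both lines, from 21.7, 22.2 and 21.2 to 17.5, 17.6 and 18.7 FPKM in HPDE and from 47.2, 48.4 and 13.8 to 4.15, 7.47 and 7.92 FPKM in HPNE. The SFRP1 line difference of 1.91 ± 0.65 (adjusted p = 0.0399) was called in 3 of 12 fits that left out 1 library, and it was 2.48 (adjusted p = 0.00301) without replicate 3 of HPNE residual medium, which lay far below its fellows.

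On the negative side, UNC5B, a netrin receptor, rose in HPNE from 4.30, 5.02 and 22.98 to 91.8, 84.5 and 87.8 FPKM and in HPDE from 0.939, 0.856 and 0.867 to 1.59, 1.91 and 2.10 FPKM, and untreated HPNE cells already held 76.5, 72.4 and 53.3 FPKM. UNC5B differed by -2.68 ± 0.46 (adjusted p = 0.000331), by -3.38 without replicate 3 of HPNE residual medium and by 0.15 (adjusted p = 0.825) against untreated cells. KRT8, a keratin of simple epithelia, fell in HPDE from 674, 641 and 656 to 159.5, 158 and 158 FPKM and was below 3 FPKM in all 6 HPNE samples. Its line difference of -2.14 ± 0.44 (adjusted p = 0.00144) sets a fall in a line that expresses the gene strongly against low values in the other. Against untreated cells KRT8 differed by -0.84 and was not called (adjusted p = 0.134). KRT8 is also 1 of the duct markers whose sum fell in HPDE.

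Some genes responded alike in both lines. Both lines had a called response of the same sign and at least 1 in size in 183 genes (1.75% of those tested), and in 73 of them the line difference was under 0.25 in size. SESN2, a stress gene downstream of ATF4, rose from 12.6, 13.2 and 13.5 to 59.3, 61.6 and 57.7 FPKM in HPDE and from 7.84, 7.73 and 16.5 to 38.5, 50.04 and 51.03 FPKM in HPNE, and its line difference was 0.01 with a 95% interval of -0.51 to 0.52. Without both HPNE libraries that lay apart SESN2 differed by -0.45 (adjusted p = 0.00553). EBP, a sterol isomerase of cholesterol synthesis, fell from 51.1, 46.4 and 46.01 to 18.9, 21.8 and 19.9 FPKM in HPDE and from 35.99, 31.8 and 21.2 to 10.7, 12.7 and 12.7 FPKM in HPNE, with a line difference of 0.00 and an interval of -0.41 to 0.41. ARHGDIB and BCL2L12, a BCL2 family member, had responses of -1.92 and -1.18 in HPDE and -1.92 and -1.18 in HPNE, and the intervals of their line differences ran from -0.48 to 0.49 and from -0.57 to 0.56. These 4 genes were picked for the smallest line difference, so their values are a description.

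**Figure D5:**
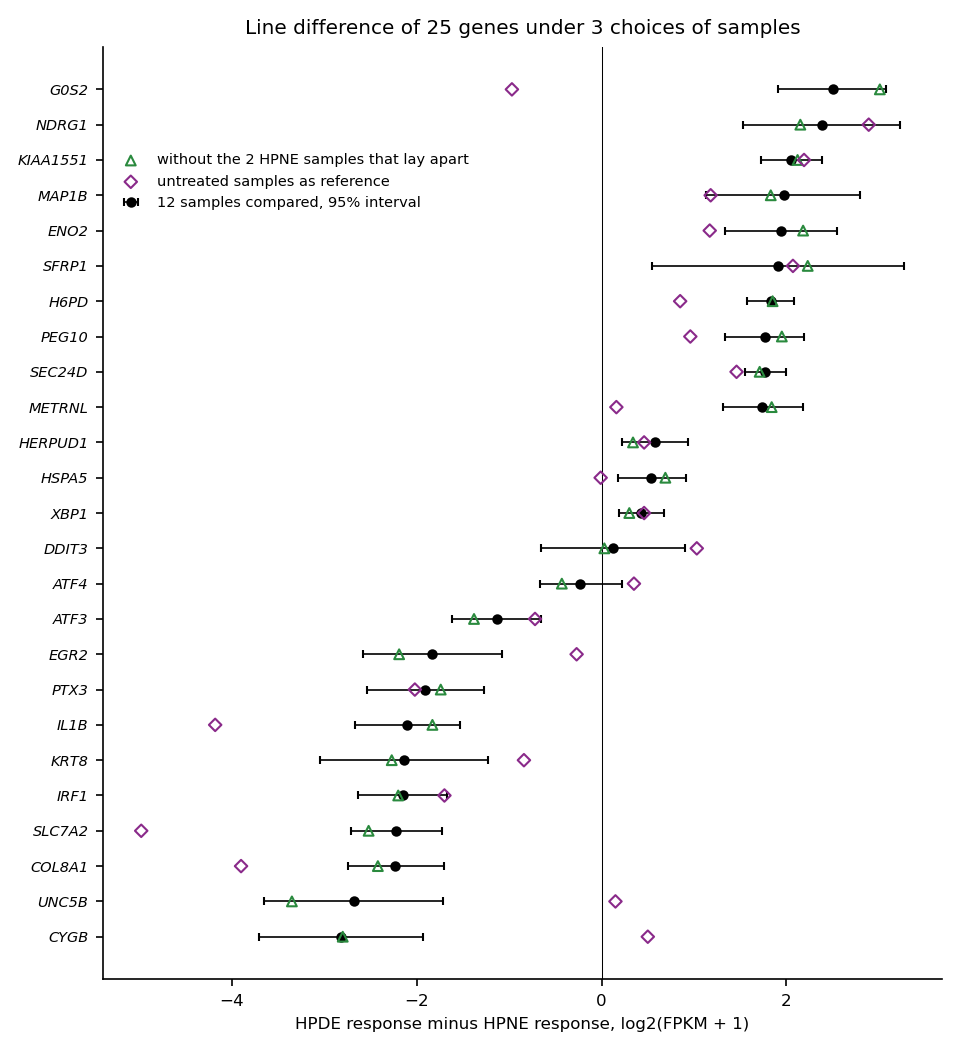
HPDE response minus HPNE response, log2(FPKM + 1), for 25 genes (the 10 highest, 9 of the 10 lowest and 6 unfolded protein response genes): black points with 95% intervals use residual medium as reference, green triangles leave out both HPNE libraries that lay apart, and purple diamonds use untreated samples. Leaving out those libraries kept the sign of all 25, while with untreated samples G0S2, CYGB, UNC5B, HSPA5 and ATF4 change sign.

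Of the 88 genes named by the rule, 82 had a called line difference, and 41 of these were called with the same sign under every alternative run. Leaving aside the untreated reference, 58 were called with the same sign under all the alternatives run. Some called differences kept their call against untreated cells but changed in size by more than 1.5 times. They shrank to 1.18 for MAP1B, 1.17 for ENO2, 0.85 for H6PD, -0.88 for RTP4, -0.72 for ATF3, 0.61 for ALDH18A1, 0.46 for EDEM3, 0.50 for SEC11C, 0.91 for KDELR3, 0.57 for COPG1, -0.75 for PARP14, 0.83 for HBEGF, -0.78 for GADD45A and -0.51 for PIR. They grew to -3.90 for COL8A1, -0.60 for TARS, 1.09 for TM7SF2, 1.68 for ACSS2, -2.20 for BIRC3, -2.37 for DUSP6, -0.83 for PSMD8, 1.56 for SQSTM1, -2.02 for AJUBA and -1.49 for AXL. Without both HPNE libraries that lay apart, SLC38A1 grew to -1.06, CTSL1 shrank to -0.42 and HERPUD1 to 0.34, and ATF4 came to be called, at -0.43 (adjusted p = 0.0177). Reads overlapping another expressed gene could not be separated by strand, because the library kit was non-directional, and 14 of the 88 named genes overlapped another gene with a mean of at least 1 FPKM, 12 of them one on the other strand (DDIT3 with MARS and KRT8 with KRT18, for example).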

How the data were processed

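RNA-seq of 24 libraries (8 groups of 3) was used. FPKM values per gene were deposited by the authors, 1 table per sample. Per the submitters' processing notes, CASAVA, STAR, HTSeq and DESeq2 were used with hg19, with no versions, roles or order; the annotation release is not given in the sources used here. Read numbers recovered from the deposited FPKM steps were whole within 0.01 read for 100% of values, and gave the depths and a limma voom fit (2373 genes called).

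Line differences were fitted with limma 3.58.1 (R 4.3.3) on log2(FPKM + 1) over 8 groups (16 residual degrees of freedom), with trended moderation, for genes with mean FPKM of at least 1 in both lines, at an adjusted p of 0.05. Responses within a line were fitted on its 12 libraries. The scripts were tested on simulated data. No count test is a main result, because the values are FPKM.

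Gene lists (28, with 592 genes tested) and members were chosen with earlier results of these data known. Named protein-coding genes were the 10 highest and 10 lowest differences without overlap between lines, 6 with opposite responses, 4 with like responses, up to 3 per list, and HSPA5, DDIT3, ATF4, XBP1, ATF3 and HERPUD1; 1 gene that the rule chose is not reported here. Alternatives are listed in the closing section.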

Additional observations from a re-analysis of the deposited data

Results flagged for a closer look

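The response to PPCL-68 vesicles differed between HPDE and HPNE in 2410 genes by limma's test of the difference itself (Benjamini-Hochberg adjusted p under 0.05). Among genes called in opposite directions in the lines, those with the largest smaller effect were G0S2 (line difference 2.50) and PEG10 (1.77), which rose in HPDE and fell in HPNE, and CYGB (-2.82), IL1B (-2.10) and RTP4 (-1.77), which fell in HPDE and rose in HPNE. In each of these 5 genes all 3 vesicle samples of a line lay on the same side of its 3 residual medium samples. Against untreated cells the line differences of G0S2 and CYGB changed sign (-0.97 and 0.50), and those of PEG10, IL1B and RTP4 kept theirs. The opposite movement itself was kept by RTP4 alone (-0.52 in HPDE and 0.36 in HPNE). With that reference G0S2 (1.02 and 1.99) and IL1B (0.81 and 4.98) rose in HPDE and in HPNE. PEG10 (-0.09 and -1.05) and CYGB (-0.38 and -0.89) were below 0 in both lines.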

How the results depend on the processing

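With 3 samples per group and FPKM as deposited, weakly expressed genes such as RTP4 and EGR2 rest on few reads. Of the 6 HPNE libraries compared, 2 lay apart from their groups. Replicate 3 of untreated HPNE and replicate 1 of HPNE with PANC-1 vesicles did so too. All 22 alternatives were run. The 2410 called genes became 4029 with untreated cells as reference and 1673 at a mean of at least 5 FPKM. Without both HPNE libraries that lay apart they became 3409 (2139 of the 2410 were called there with the same sign). A fit on only the 12 samples compared called 1859 genes, and a fit without a filter called 3250 of 32977. Genes higher in HPDE numbered 2058 with the untreated reference and 2146 without both libraries, against 1190. Genes lower numbered 796 at 5 FPKM and 1971 with the untreated reference, against 1220. Dividing by size factors shifted the split to 1498 higher and 1087 lower. Differences of at least 1 (229 genes) numbered 381 with a pseudocount of 0.1, 394 without a filter, 139 at 5 FPKM, 589 with the untreated reference, 383 without both libraries and 400 by voom on recovered reads, an alternative chosen after seeing the data. Opposite calls (272) numbered 167 without a filter, 181 with only the 12 samples compared and 605 with the untreated reference. Leaving out each of the 12 libraries in turn gave 1928 to 3522 called genes, 918 to 2109 higher, 977 to 1413 lower, 202 to 457 at or above 1, 172 to 369 opposite and 167 to 271 called members of the lists (188 with all libraries). Leaving out replicate 3 of HPNE residual medium gave the upper ends 3522, 2109, 457 and 369, and leaving out replicate 1 of that group gave the 172. Of the 82 called named genes, 57 held with the untreated reference, 14 lost the call and 11 changed sign.

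Deviations of same-numbered replicates from their group means correlated at -0.194, -0.215 and -0.0134 in HPDE and at -0.503, 0.506 and -0.448 in HPNE. In HPNE replicate 3 lay apart with residual medium and replicate 1 with PPCL-68 vesicles. Deviations from a mean of 3 samples also depend on each other. These values therefore cannot show whether the samples were paired. A fit with the replicate block called 2336 genes.

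With untreated cells the line difference changed sign for G0S2 (-0.97), CYGB (0.50), UNC5B (0.15), EBP (-0.33), ARHGDIB (-0.28), SEC61G (-0.16), UBE2C (-0.42), THBS1 (-0.24), DUSP5 (-0.53), PLK2 (0.19), ME1 (0.10), CTSL1 (0.38), HSPA5 (-0.01) and ATF4 (0.35); the cause was not tested. Genes with differences near 0 changed sign more widely: BCL2L12 read 0.05 with size factors, 0.06 with the smaller pseudocount, 0.32 without both libraries and 0.12 by voom, and SESN2 read -0.02, -0.45 and -0.04 with the smaller pseudocount, without both libraries and by voom. With 1 library left out, values ran from -0.15 to 0.24 for ARHGDIB, -0.22 to 0.36 for BCL2L12, -0.25 to 0.41 for DDIT3, -0.15 to 0.22 for EBP and -0.32 to 0.18 for SESN2, none of them called with all libraries.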

Other observations

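PANC-1 vesicles, given to the same lines and set against the same residual medium samples, offer values to read beside those of PPCL-68 vesicles. The control samples are shared, so the pairs of values below are not independent. Replicate 1 of HPNE with PANC-1 vesicles lay apart from its fellows. Its interferon-stimulated genes averaged 0.30 above residual medium, for example, against 0.67 and 0.79. In HPDE, ER chaperones had a median response of -0.04 with PANC-1 and 0.37 with PPCL-68 vesicles, ERAD genes 0.10 and 0.64, translocation genes -0.18 and 0.26 and ER to Golgi genes -0.15 and 0.14. In HPNE the same lists read -0.33 and -0.35, 0.02 and 0.08, -0.28 and -0.09, and -0.38 and -0.34. The ATF4 and CHOP arm read 1.28 and 1.27 in HPDE and 1.15 and 1.45 in HPNE. Interferon-stimulated genes read 0.30 with PANC-1 and -0.10 with PPCL-68 vesicles in HPDE, and 0.56 and 0.87 in HPNE. Glycolysis and hypoxia genes read -0.20 and -0.13 in HPDE and -0.68 and -0.99 in HPNE. Genes of the mitochondrial genome read -0.93 and -0.50 in HPDE and 0.18 and 0.08 in HPNE. No test between the vesicles was made here.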
